A study of Mus musculus with 6 samples.

Results

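The presynaptic active zone scaffold genes are 10 mouse genes for large proteins of the synaptic vesicle release site: Bsn, Pclo, Rims1, Rims2, Rims3, Unc13a, Erc1, Erc2, Ppfia2 and Ppfia3. Members were every probe set annotated to exactly 1 gene symbol that is one of these names. They came to 24 probe sets for 10 of the 18193 genes so named on the array. Of these, 21 were bright enough to be tested and 3 were not, 1 each of Rims2, Rims3 and Ppfia2. Unc13a, Erc2 and Ppfia3 had 1 probe set each and the other genes had more. Choosing the genes used no measured value, but earlier results of these data were known when they were chosen.

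Expression was measured with Affymetrix arrays in corticothalamic projection neurons, the cortical neurons that send axons to the thalamus. All 6 samples came from wild-type C57BL/6 mice, and all carried green fluorescent microspheres that had been placed in the thalamus, taken up by axons and used to sort the neurons from cortex. The group called E18 was injected at E17.5 and collected at E18.5, the P3 group was injected at P1 and collected at P3, and the P6 group was injected at P4 and collected at P6. Each stage had 2 arrays and no other genotype, treatment or control group was used. Labelling therefore lasted 1 day in the E18 group and 2 days in the others, so labelling time and the step from E18 to later stages cannot be told apart. The labelling was meant to select neurons whose axons had reached the injection site, and marker levels of other cells are given below. Nothing in the labels says that the 2 samples of a stage were separate animals or litters. The p-values then reflect the scatter of these samples, which may be technical.

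The active zone is the patch of presynaptic membrane where vesicles dock and fuse. Bassoon and piccolo, the giant proteins encoded by Bsn and Pclo, travel to forming synapses on transport vesicles and organise the vesicle cluster. RIM proteins bind the vesicle GTPase RAB3 and tether calcium channels, Munc13 proteins prime vesicles for fusion, ELKS/ERC proteins bind RIMs, and liprins-alpha link the scaffold to LAR-type receptor phosphatases. Corticothalamic axons form their thalamic synapses mainly after birth.

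Values are log2 expression levels from RMA, a method that makes 1 background-corrected and normalised value per probe set. A gene's lead probe set is the one with the highest mean over the 6 arrays. Changes are differences of stage means with a standard error (SE), from a limma model over all 6 arrays, and a change was called when its Benjamini-Hochberg adjusted p over all 26209 tested probe sets was below 0.05. Levels of different probe sets are not on a common scale, so a probe set, or a median or sum over a list, is compared only with itself on other arrays.

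The E18 arrays stood apart in how closely they matched. The correlation between the arrays of a stage over all 45101 probe sets was 0.998 at E18, where 0 probe sets differed by over 2-fold. It was 0.961 at P3, with 3664 such probe sets, and 0.976 at P6, with 1710. Several results below are also given with the E18 arrays counted as 1 sample. The 18S ribosomal RNA controls read 14.22 for P3 replicate 2, 13.92 for P6 replicate 1, and 11.32 to 11.83 elsewhere. Actb signal at the 3' end minus that at the 5' end, a gauge of RNA shortening, was 0.56 and 0.58 at E18 and between 0.82 and 1.76 later. The 10 markers of corticothalamic neurons had median levels of 8.76 and 8.80 on the E18 arrays, and 8 of 10 were called higher at P3, with a median change of 1.48. Progenitor and dividing-cell markers, which finished neurons should lack, had medians of 11.50 and 11.54 and of 11.69 and 11.63 on the E18 arrays, against 6.60 and 6.78 and 6.05 and 6.23 on the P3 arrays. At P3, 9 of 11 progenitor markers were lower with a median change of -5.53, and all 8 tested markers of dividing cells were lower. In sorted bulk samples, fewer cells of a type and less RNA per cell cannot be told apart.

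Between E18 and P3 the lead probe sets of 7 of the 10 scaffold genes rose, by unequal amounts, and 0 fell, where 34.1% of all tested probe sets were called in either direction and 12.9% higher. With the E18 arrays averaged, or without either E18 array, 4 of the 10 were called, those of Pclo, Rims1, Unc13a and Erc2. Pclo, Rims1, Unc13a and Erc2 rose between 4.55-fold and 5.97-fold. Bsn, Ppfia2 and Ppfia3 rose between 1.97-fold and 2.63-fold. The lead probe sets of Rims2, Rims3 and Erc1 were not called at P3. Between P3 and P6 no member was called, and by P6 Rims2 was also called higher than at E18.

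Over all tested member probe sets, 11 of 21 were called higher at P3 than at E18 and 0 lower. The shares of all tested probe sets were 12.9% higher and 21.2% lower. The median change of the 21 was 0.98 on the log2 scale, and that of all tested probe sets was -0.01. The arrays of P3 lay above both E18 arrays for 19 of 21 member probe sets, against 39.2% of all tested probe sets. The member median over the E18 mean was 1.52 and 1.0 on the P3 arrays and 1.70 and 2.06 on the P6 arrays, 1 lead probe set a gene. Pclo 1452423_at and Unc13a had E18 means below the brightness limit of 5.54 and were tested because of their later levels, so the counts over tested members are a description. With the E18 arrays averaged into 1 sample, 7 member probe sets were called at P3, and 7 also without E18 replicate 1.

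**Figure D1:**
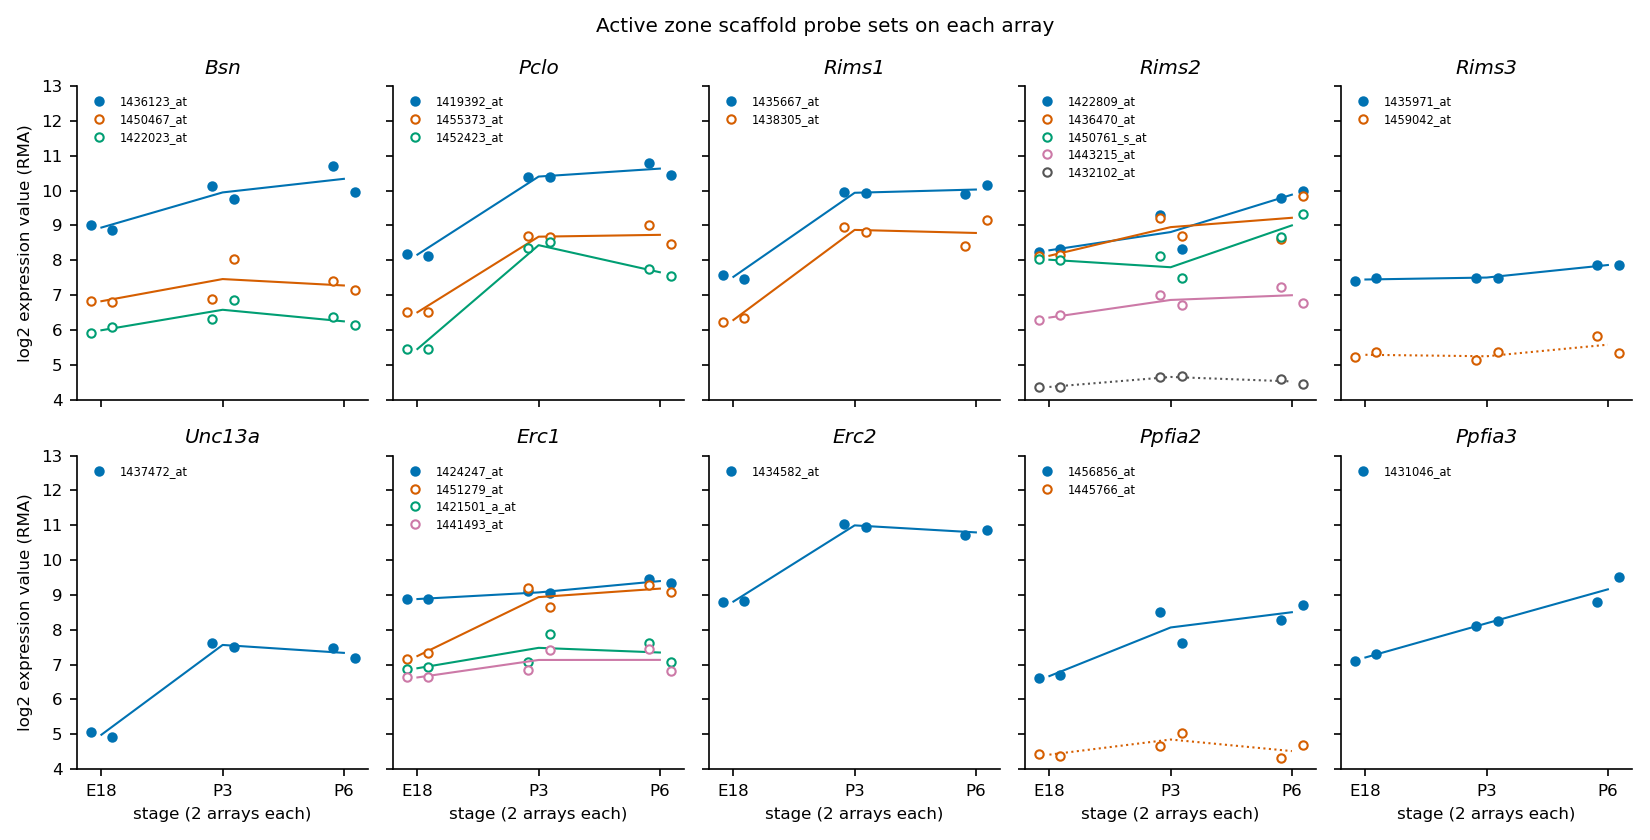
Log2 expression level (vertical axis) of each of the 24 member probe sets at E18, P3 and P6 (horizontal axis), 1 panel a gene. Each point is 1 of the 2 arrays of a stage, lines join stage means, filled points mark the lead probe set and dotted lines mark probe sets too dim to be tested. Every Pclo, Rims1, Unc13a and Erc2 probe set steps up by P3, the Erc1 probe sets part from each other, and the Rims3 lead moves by 0.06 from E18 to P3.

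The promoters of the 4 genes with the largest rises of their lead probe set are shown with that of Rims3, whose lead probe set was not called in any comparison. These 5 were chosen after their values were seen. Each is the 250 bases before 1 annotated start, on the gene's strand, from RefSeq on GRCm38.p6, with GC boxes (GGGCGG on either strand) in capitals. Positions below are counted from that start. For all but Rims1 the RefSeq gene bound lies farther upstream, inside the run shown. It is at 71671774 for Unc13a, 14514906 for Pclo, 27622275 for Erc2 and 120854779 for Rims3.
Unc13a, chr8:71671758-71672007, minus strand: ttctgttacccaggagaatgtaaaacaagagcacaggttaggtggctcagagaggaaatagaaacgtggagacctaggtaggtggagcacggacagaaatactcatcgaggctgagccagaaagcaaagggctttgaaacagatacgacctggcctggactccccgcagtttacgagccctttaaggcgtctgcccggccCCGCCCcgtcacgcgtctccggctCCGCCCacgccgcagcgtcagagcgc
Rims1, chr1:22806159-22806408, minus strand: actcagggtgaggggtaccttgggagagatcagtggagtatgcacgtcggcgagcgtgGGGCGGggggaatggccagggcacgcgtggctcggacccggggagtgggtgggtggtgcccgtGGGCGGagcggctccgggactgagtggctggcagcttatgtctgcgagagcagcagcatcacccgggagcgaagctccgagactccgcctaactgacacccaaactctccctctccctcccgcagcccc
Pclo, chr5:14514668-14514917, plus strand: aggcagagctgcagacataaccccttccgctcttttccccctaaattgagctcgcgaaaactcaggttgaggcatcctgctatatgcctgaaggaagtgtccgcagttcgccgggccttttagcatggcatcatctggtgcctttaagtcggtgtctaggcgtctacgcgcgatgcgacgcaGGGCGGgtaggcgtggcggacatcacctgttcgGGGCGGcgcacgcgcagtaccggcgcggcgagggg
Erc2, chr14:27622157-27622406, plus strand: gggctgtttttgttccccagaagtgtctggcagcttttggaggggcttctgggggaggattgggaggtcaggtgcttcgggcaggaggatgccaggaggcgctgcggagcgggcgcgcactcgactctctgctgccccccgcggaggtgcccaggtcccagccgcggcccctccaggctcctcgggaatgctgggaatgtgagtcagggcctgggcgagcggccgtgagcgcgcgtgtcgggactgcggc
Rims3, chr4:120854549-120854798, plus strand: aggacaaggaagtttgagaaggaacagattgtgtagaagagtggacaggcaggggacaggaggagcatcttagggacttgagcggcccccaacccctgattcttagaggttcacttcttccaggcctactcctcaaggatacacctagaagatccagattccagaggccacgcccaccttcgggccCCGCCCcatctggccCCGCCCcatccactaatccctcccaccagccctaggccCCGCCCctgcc

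A window from 250 bases before to 50 bases after the start was found for 9 of the 10 member genes. The GC box, on either strand, lay in 8 of these 9 windows and in 35.7% of all 32851 windows. It was in the Rims3 window and in those of the 4 genes that rose most. In Erc2 both copies lay after the start, outside the run shown. The TATA box TATAAA lay in 0 of 9 member windows and in 13.6% of all windows, and the cyclic AMP response element TGACGTCA in 0 of 9 and in 1.79%.

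The repressor REST keeps many neuronal genes silent outside neurons and binds a long element whose left piece is TTCAGCACC and whose right piece is GGACAG. Searched on both strands, the left piece lay in the windows of Unc13a and Ppfia3 and in 0.371% of all windows, and the right piece in those of Unc13a and Rims3 and in 22.2%. In Unc13a both pieces followed each other on the opposite strand with 8 bases between them, an arrangement that 4 of the 32851 windows held. With 2 bases between them the pieces lay in 0 of 9 member windows and in 4 of all windows. No other spacing was searched. Whether the spacing of 8 was set before the Unc13a window was seen is not recorded, so its rarity is a description and not a test. The Unc13a stretch lies 5 to 31 bases after the start, with the pieces in capitals.
Unc13a, chr8:71671727-71671753, minus strand: ggcgCTGTCCgcgcccccGGTGCTGAA
In the Ppfia3 window the left piece began 46 bases before the start. These matches describe letters in a window, and binding of any factor was not measured.

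Pclo and Bsn encode the giant scaffold proteins of the presynaptic cytomatrix. The lead Pclo probe set read 8.19 and 8.13 (E18), 10.40 and 10.40 (P3), then 10.80 and 10.46 (P6). Both P3 arrays were above both E18 arrays, a rise of 2.24 ± 0.23 (SE, n = 2 arrays a stage), or 4.73-fold (limma adjusted p = 0.000882). The other 2 Pclo probe sets rose in the same interval, 1455373_at by 2.17 ± 0.25 (4.50-fold) and 1452423_at by 2.98 ± 0.19 (7.89-fold). Probe set 1452423_at was at 5.45 on both E18 arrays, then 8.35 and 8.51 (P3) and 7.75 and 7.56 (P6). Its P6 arrays lay below its P3 arrays, a difference of -0.78 ± 0.19 that was not called (adjusted p = 0.179). By P6 the 3 Pclo probe sets were between 4.61-fold and 5.54-fold above E18.

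The lead Bsn probe set read 9.0 and 8.87 (E18), 10.13 and 9.76 (P3), then 10.71 and 9.96 (P6). The stages E18 and P3 did not overlap, and the rise was 1.01 ± 0.32, or 2.01-fold, with an adjusted p of 0.0481. That call was lost with the E18 arrays averaged (adjusted p = 0.230) and without any 1 of the E18 or P3 arrays (adjusted p from 0.0593 to 0.261). At P6 Bsn was 2.64-fold above E18 (adjusted p = 0.0184), a call lost without either E18 array (0.108 and 0.142) or without P6 replicate 1 (0.0803). The other 2 Bsn probe sets share 1 annotated target sequence and were not called. Of these, 1450467_at was at 6.83 and 6.81 (E18), 6.88 and 8.04 (P3), then 7.39 and 7.15 (P6). Its highest value fell on P3 replicate 2, an array with a high 18S level. When the 18S level entered the fit as a covariate, the change from E18 to P3 became 0.17 in place of 0.64. Without P3 replicate 1, both dim Bsn probe sets were called higher at P3, at 1.22 and 0.85.

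Rims1 and Rims2 encode RIM1 and RIM2, the central organisers that join vesicles, calcium channels and Munc13, and Rims3 encodes a short RIM that lacks most of their domains. The lead Rims1 probe set was at 7.58 and 7.46 (E18), 9.95 and 9.92 (P3), then 9.90 and 10.16 (P6). No later array overlapped E18, and the rise to P3 was 2.41 ± 0.23, or 5.33-fold (adjusted p = 0.000575). The second Rims1 probe set, 1438305_at, rose by 2.59 ± 0.29, or 6.00-fold, in the same interval. At P6 the 2 probe sets were 5.68-fold and 5.65-fold above E18.

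Rims2 was called at P6 but not at P3, and whether it differs from Rims1 was not tested. Its lead probe set was at 8.24 and 8.33 (E18), 9.31 and 8.31 (P3), then 9.79 and 9.97 (P6). The P3 arrays were about 1 log2 unit apart and 1 of them lay within the E18 range, and the change to P3, 0.52 ± 0.35, was not called (adjusted p = 0.268). At P6 both arrays were above all others, and the difference from E18 was 1.60 ± 0.35, or 3.02-fold (adjusted p = 0.0169). That call was lost without any 1 of the E18 or P6 arrays (adjusted p from 0.0823 to 0.108). Without P3 replicate 2 the change to P3 was 1.02 and was called (adjusted p = 0.0157), as it was after quantile normalisation of the arrays (0.89, adjusted p = 0.041). Probe set 1450761_s_at, annotated to the same target sequence, was at 8.02 and 8.01 (E18), 8.11 and 7.48 (P3), then 8.67 and 9.33 (P6). Its change to P3 was -0.22 ± 0.32, which turned to 0.026 after quantile normalisation. Its difference from E18 at P6, 0.99, was called without P3 replicate 1 (adjusted p = 0.0382) but not in the fit of all arrays (0.0657). The remaining tested Rims2 probe sets, 1436470_at and 1443215_at, were not called at P3 or P6 in the fit of all arrays. Probe set 1436470_at was called at P3 with the 18S level as a covariate (1.43, adjusted p = 0.0183) and at P6 without P6 replicate 1 (1.71, adjusted p = 0.0309). The untested 1432102_at stayed between 4.36 and 4.66 on all arrays.

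Rims3 changed least among the lead probe sets between E18 and P3. It was at 7.40 and 7.49 (E18), 7.50 and 7.50 (P3), then 7.87 and 7.85 (P6). The change to P3 was 0.06 ± 0.19 (adjusted p = 0.826). Its P6 arrays lay above the other 4, but the difference from E18, 0.42 ± 0.19, was not called (adjusted p = 0.158). Its untested probe set ranged from 5.13 to 5.83.

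Unc13a encodes Munc13-1, which prepares docked vesicles for fusion. It was at 5.06 and 4.91 (E18), 7.61 and 7.52 (P3), then 7.48 and 7.19 (P6). The E18 values lay below the lower quartile of their arrays, 5.16 and 5.15, and every later array was above them. The rise to P3 was 2.58 ± 0.19, or 5.97-fold (adjusted p = 0.000208), and a fold change from so low a level is understated by array background. At P6 Unc13a was 5.10-fold above E18.

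Erc1 and Erc2 encode the ELKS proteins, of which ERC2, or CAST, is the form known mainly from brain. Erc2 was at 8.80 and 8.82 (E18), 11.04 and 10.95 (P3), then 10.71 and 10.88 (P6). It rose by 2.19 ± 0.22, or 4.55-fold, to P3 (adjusted p = 0.00068) and was 3.96-fold above E18 at P6. The lead Erc1 probe set was at 8.87 and 8.89 (E18), 9.10 and 9.04 (P3), then 9.45 and 9.34 (P6). Its stages did not overlap, yet the change to P3 was 0.19 ± 0.22 and was not called (adjusted p = 0.504). At P6 the difference from E18 was 0.52, called only without P3 replicate 1 or 2 among the arrays left out (adjusted p = 0.0348 and 0.0356).

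The Erc1 probe sets disagreed. Probe set 1451279_at, annotated to the same target sequence as the lead, was at 7.16 and 7.33 (E18), 9.21 and 8.67 (P3), then 9.28 and 9.08 (P6). It rose by 1.69 ± 0.27, or 3.23-fold, to P3 (adjusted p = 0.00451; 0.0597 without E18 replicate 1) and was 3.83-fold above E18 at P6. The lead probe set and 1451279_at therefore give different answers for Erc1, and which transcripts each one reads was not tested. The other 2 Erc1 probe sets, 1421501_a_at and 1441493_at, were not called. The former was highest on P3 replicate 2 (7.89) and the latter on P6 replicate 1 (7.46), the arrays with high 18S levels. With 18S as a covariate their changes to P3 were 0.12 and 0.084, in place of 0.59 and 0.50. Without P3 replicate 1, 1421501_a_at was called higher at P3 (0.99, adjusted p = 0.0395).

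Ppfia2 and Ppfia3 encode liprin-alpha-2 and liprin-alpha-3, the liprins best known from brain. The lead Ppfia2 probe set was at 6.63 and 6.71 (E18), 8.52 and 7.61 (P3), then 8.29 and 8.71 (P6). All later arrays were above E18, with a rise to P3 of 1.40 ± 0.34, or 2.63-fold (adjusted p = 0.0214). Ppfia3 was at 7.09 and 7.31 (E18), 8.11 and 8.26 (P3), then 8.80 and 9.52 (P6). Its stages did not overlap, and it rose 1.97-fold to P3 (0.98 ± 0.29, adjusted p = 0.0414). At P6 it was 3.88-fold above E18 (adjusted p = 0.00364), and Ppfia2 was 3.56-fold above (adjusted p = 0.0082), a call lost without E18 replicate 1 (0.0550) or P6 replicate 2 (0.0584). With the E18 arrays averaged, the P3 calls of Ppfia2 (adjusted p = 0.116) and Ppfia3 (adjusted p = 0.219) were lost. They were also lost without either E18 array, and that of Ppfia3 without either P3 array (adjusted p = 0.0565 and 0.113). The untested Ppfia2 probe set 1445766_at ranged from 4.33 to 5.04.

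**Figure D2:**
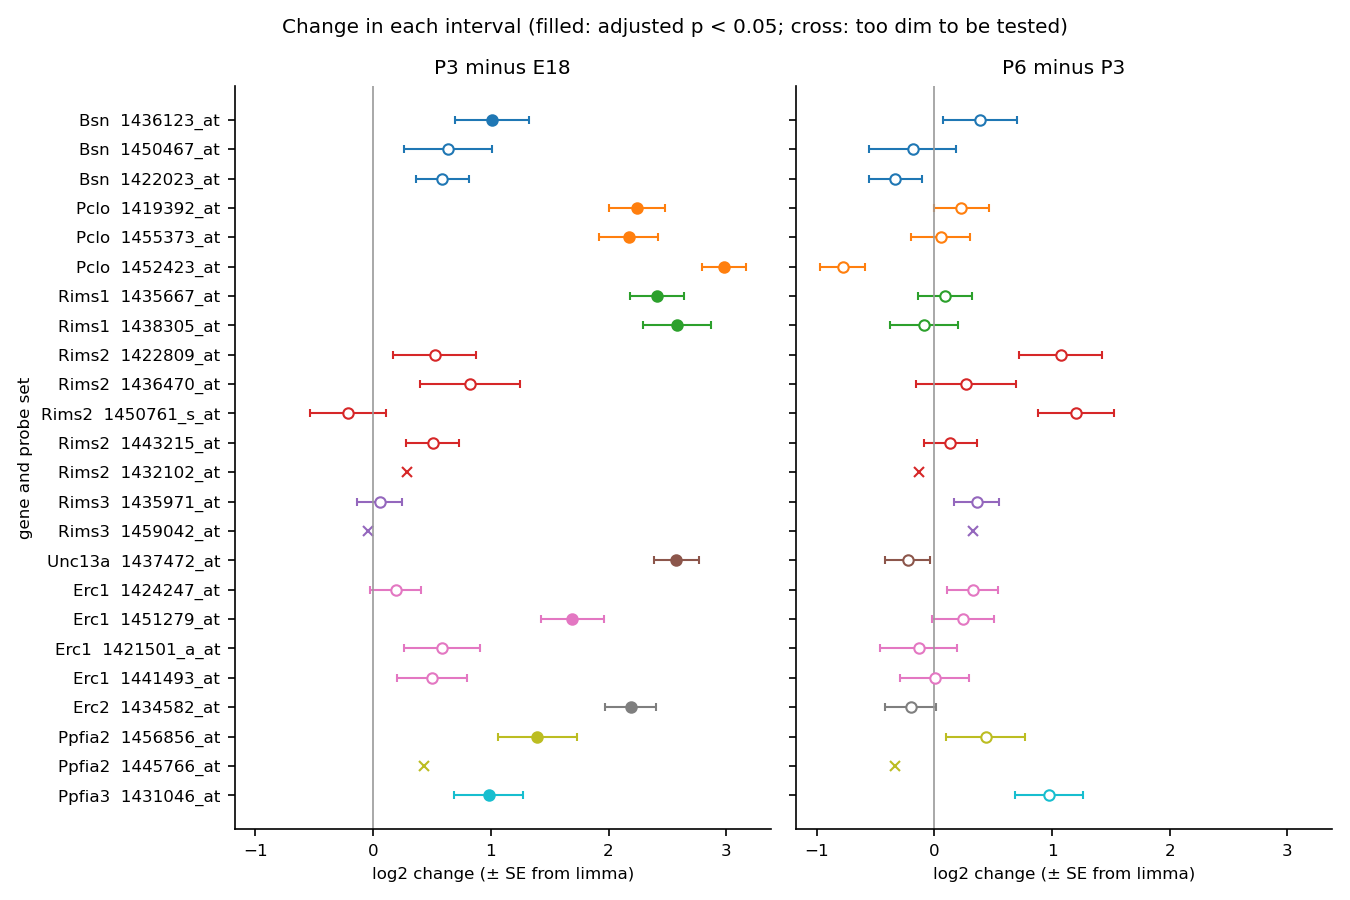
Log2 change with its SE (horizontal axis) of every member probe set (vertical axis, grouped by gene) from E18 to P3 in the left panel and from P3 to P6 in the right panel. Filled points have an adjusted p below 0.05 and crosses were too dim to be tested; 11 points are filled on the left and 0 on the right.

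Set against all tested probe sets, the change to P3 of each Pclo, Rims1, Unc13a and Erc2 probe set stood between the 98.5th and 99.6th percentile. Those of Rims2 lay between the 42.3rd and 87.5th percentile, that of Rims3 at the 52.7th, and those of Erc1 between the 59.1st and 96.8th.

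**Figure D3:**
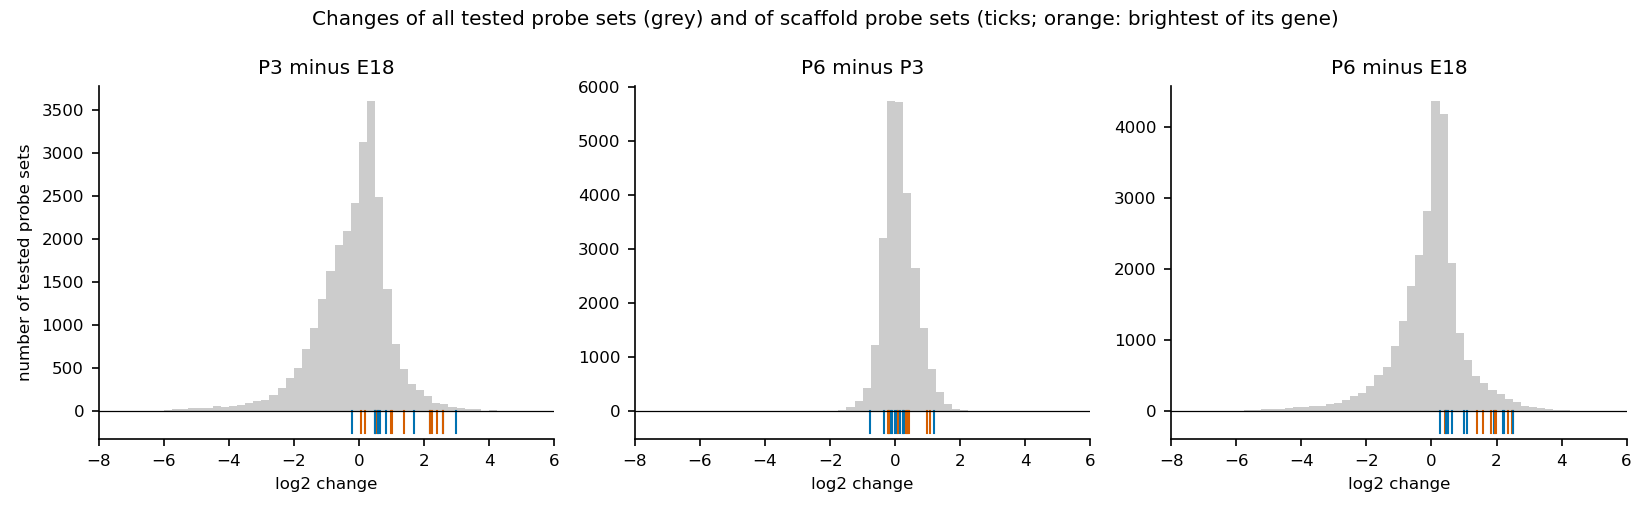
Number of tested probe sets (vertical axis) by log2 change (horizontal axis) in each comparison of stages, with ticks under the bars for the 21 tested member probe sets, orange for lead probe sets and blue for the others. The member median was 0.98 and that of all probe sets -0.01 from E18 to P3, 0.14 and 0.09 from P3 to P6, and 1.60 and 0.09 from E18 to P6.

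Between P3 and P6, 0 of 21 member probe sets were called, and 0% of all tested probe sets were called in limma's test. At an unadjusted p under 0.05 there were 4 of 21 members and 17.2% of all tested probe sets. Both P6 arrays were above both P3 arrays for 6 of 21 members (26.2% of all) and below for 3 (15.5%). Among the uncalled values, the lead Rims2 probe set differed by 1.07 ± 0.35 and Ppfia3 by 0.97 ± 0.29. Without P3 replicate 1, 4 member probe sets were called: the lead Rims2 probe set at 1.57 and 1450761_s_at at 1.51, both higher, and Pclo 1452423_at at -0.85 and Bsn 1450467_at at -0.77, both lower. In that fit 5770 of all 26209 tested probe sets were called. The member median was 0.14 and turned to -0.048 after quantile normalisation. No call at P6 against P3 does not show that levels stayed the same.

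Between E18 and P6, 12 of 21 member probe sets were called higher and 0 lower, against 26.4% of all tested probe sets in either direction and 11.5% higher. The median change was 1.60 for members and 0.09 for all. Both P6 arrays lay above both E18 arrays for all 21 tested members, as they did for 43.4% of all tested probe sets. The 12 called probe sets rose between 2.64-fold and 5.68-fold and came from 9 of the 10 genes, Rims3 being the gene with none. That count takes the E18 arrays as 2 samples, and fewer member probe sets were called with them averaged.

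Whether a gene changed by a different amount in the second interval than in the first was tested directly. The difference, the change from P3 to P6 minus the change from E18 to P3, was called for 7 of 21 member probe sets, all lower. Of all tested probe sets 15.7% were called in either direction, 11.8% higher and 3.88% lower, and 75.3% of the calls were higher, a share that was 57.7% after quantile normalisation. The 7 were all 3 Pclo probe sets, both Rims1 probe sets, Unc13a and Erc2. Unc13a differed by -2.80 ± 0.33 (adjusted p = 0.00412) and Erc2 by -2.39 ± 0.37 (adjusted p = 0.0110). The lead probe sets of Pclo and Rims1 differed by -2.01 and -2.32. General neuron markers had 4 of 12 called lower in the same test, with a median of -1.37. Corticothalamic markers had 2 of 10 called lower, with a median of -1.15. The lead probe sets of the members had 4 of 10 and a median of -0.79. In each of these lists 0 were called higher. The P3 arrays enter both intervals, with opposite sign. The first interval, unlike the second, includes the change from 1 to 2 days of labelling. Progenitor and dividing-cell markers had median differences of 4.99 and 5.62 in this test. Labelling time, cell makeup and a change within the neurons cannot be told apart here, and their parts were not tested. With the E18 arrays averaged, or without either E18 array, 2 of the 7 stayed called, Pclo 1452423_at and Unc13a. These are the probe sets with E18 means, 5.45 and 4.99, below the brightness limit, which were tested because of their later levels, so they give no independent support. Without P3 replicate 1 the count was 11, of which 9 were lower and 2 higher, and 10770 of all tested probe sets were called. The 2 higher were Rims2 1422809_at at 1.55 (adjusted p = 0.0214) and 1450761_s_at at 2.04 (adjusted p = 0.0450). Single calls were lost without P6 replicate 2 for Pclo 1419392_at (adjusted p = 0.0516) and without P3 replicate 2 for Pclo 1455373_at (0.0647) and Rims1 1438305_at (0.0618).

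Paralogs outside the member list showed both directions. RIM4 is a short RIM, and its gene Rims4 was at 6.02 and 5.97 (E18), 7.49 and 6.66 (P3), then 8.28 and 8.17 (P6). It rose 2.11-fold to P3 (adjusted p = 0.0299) and 4.67-fold to P6 (adjusted p = 0.0020), and the P3 call was lost with the E18 arrays averaged (adjusted p = 0.159) and without any 1 of the E18 or P6 arrays (0.0591 to 0.171). The other Munc13 genes, Unc13b and Unc13c, changed by 0.32 and 0.48 to P3 and were not called, beside 2.58 for Unc13a. Unc13b was called after quantile normalisation (0.77, adjusted p = 0.0205). The liprin gene Ppfia4 rose 1.99-fold to P3 (adjusted p = 0.0158), a call lost without E18 replicate 1 (0.167) or 2 (0.207).

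Ppfia1 encodes a widely expressed liprin-alpha. It was at 8.49 and 8.36 (E18), 7.66 and 6.20 (P3), then 6.83 and 7.07 (P6), so every later array was below E18. Its fall to P3 of -1.49 ± 0.44 was called (adjusted p = 0.0416), opposite in sign to the rises of Ppfia2 and Ppfia3. That call was lost without P6 replicate 1 or 2 (adjusted p = 0.0860 and 0.0859), without E18 replicate 1 or 2 (0.144 and 0.124), and with 18S as a covariate (0.141). The differences between paralogs were not tested.

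**Figure D4:**
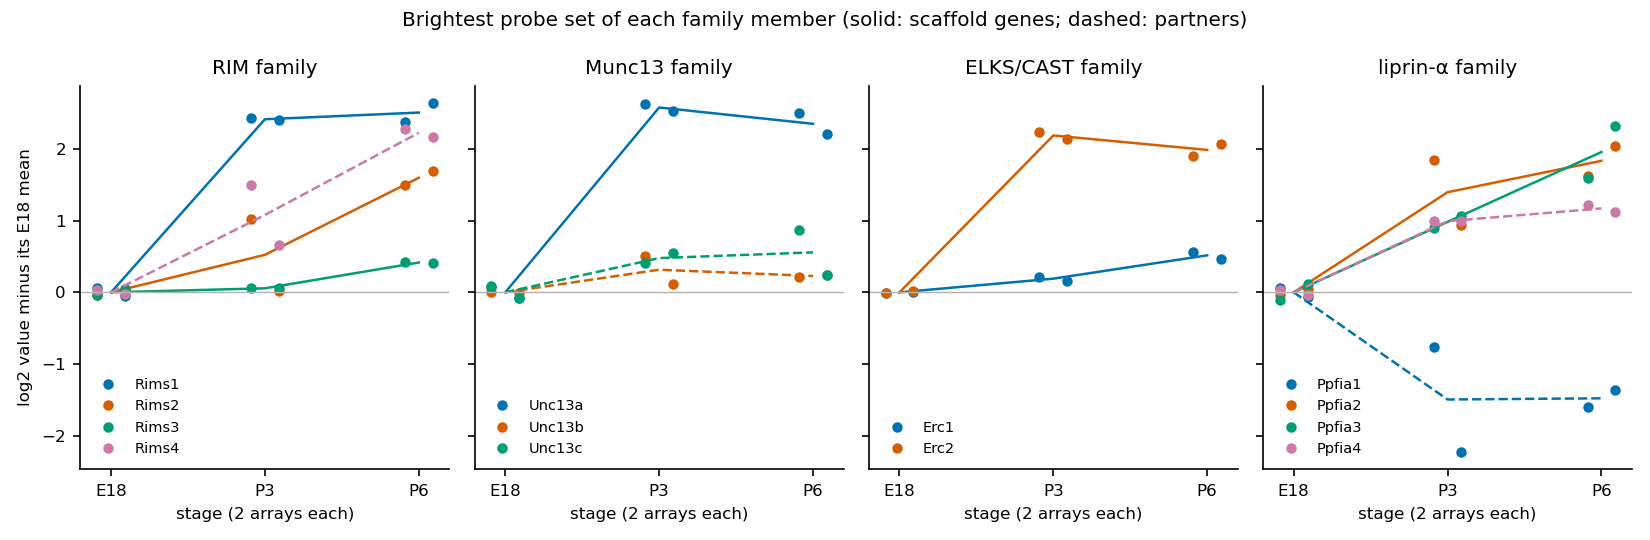
Log2 level minus the E18 mean of the same probe set (vertical axis) by stage (horizontal axis) for the lead probe sets of the RIM, Munc13, ELKS and liprin-alpha families. Points are arrays and lines join stage means, solid for members and dashed for paralogs outside the list; the Ppfia1 arrays after E18 lie below 0 and those of Ppfia2, Ppfia3 and Ppfia4 above it.

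Genes whose proteins bind or regulate the scaffold moved in both directions. Of 37 listed partner genes, 36 had a single-symbol probe set and all 36 were tested. Between E18 and P3, 15 were called higher, 5 lower and 16 not. Of all tested probe sets 12.9% were called higher and 21.2% lower, so the partners' lower calls did not exceed that share. The partners' median change was 0.59, beside 1.2 for the lead probe sets of the members. Rimbp2, which encodes the RIM-binding protein RIM-BP2, was at 6.97 and 7.07 (E18), 9.53 and 9.44 (P3), then 9.54 and 9.23 (P6). Its rise of 2.46 ± 0.23, or 5.5-fold (adjusted p = 0.000546), stands beside 5.33-fold for Rims1 and 5.97-fold for Unc13a. Apba2, which encodes the Munc18-binding protein Mint2, rose 3.53-fold and Mycbp2, a large ubiquitin ligase that acts in presynaptic development, rose 2.38-fold.

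The partners called lower with the smallest p were Fbxo45, the F-box partner of Mycbp2, at -1.90 (adjusted p = 0.00466), Syde1 at -1.26 (0.0052), and Arhgef7, an exchange factor bound by GIT proteins, at -1.26 (0.00606). With the E18 arrays averaged, the Arhgef7 (0.1004) and Syde1 (0.0563) calls were lost. That of Arhgef7 was also lost without E18 replicate 1 (0.0974) or 2 (0.102), and that of Syde1 without E18 replicate 2 (0.0677). Arhgef7 was at 10.79 and 10.79 (E18), 9.61 and 9.44 (P3), then 10.57 and 10.51 (P6). It was thus low on the P3 arrays and differed from E18 by -0.25 at P6 (adjusted p = 0.419), with a second interval that exceeded the first by 2.28 ± 0.37 (adjusted p = 0.0125). Git1 was also low on the P3 arrays, at 9.44 and 9.37, then 8.75 and 7.96, then 9.66 and 9.75, and its intervals differed by 2.40 (adjusted p = 0.0304). Without E18 replicate 1 or 2 these adjusted p rose to 0.0938 and 0.0986 for Arhgef7 and 0.123 and 0.121 for Git1, whose call was also lost without either P6 array (0.0753 and 0.0848). Fbxo45 was called in the same direction (2.06, adjusted p = 0.0433), a call lost without any 1 array other than P3 replicate 1 (adjusted p from 0.0756 to 0.171).

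Rimbp2 and Rab3c had smaller second than first intervals, with differences of -2.55 (adjusted p = 0.0110) and -2.42 (adjusted p = 0.0170). Rab3c, a vesicle GTPase of the kind that RIMs bind, was at 8.69 and 8.86 (E18), 10.31 and 10.32 (P3), then 9.65 and 9.20 (P6). Both calls were lost with the E18 arrays averaged (adjusted p = 0.0790 and 0.0973) and without either E18 array. At P6, 17 of the 36 partners were called higher than at E18 and 3 lower, with a median of 0.71. Of all tested probe sets 11.5% were called higher and 14.9% lower. Between P3 and P6, 0 partners were called, and 8 had an unadjusted limma p under 0.05, against 17.2% of all tested probe sets. Rab3b, the gene of another vesicle GTPase, was at 7.85 and 7.75, then 9.82 and 9.01, then 10.43 and 10.87, a 7.21-fold rise to P6 (adjusted p = 0.0013). The partners lower at P6 were Syde1 (-1.57), Fbxo45 (-1.74) and the liprin-beta gene Ppfibp1 (-1.09). Without either E18 array the Fbxo45 (0.0530 and 0.0594) and Ppfibp1 (0.0625 and 0.107) calls were lost, and that of Fbxo45 also without P6 replicate 1 (0.0537).

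**Figure D5:**
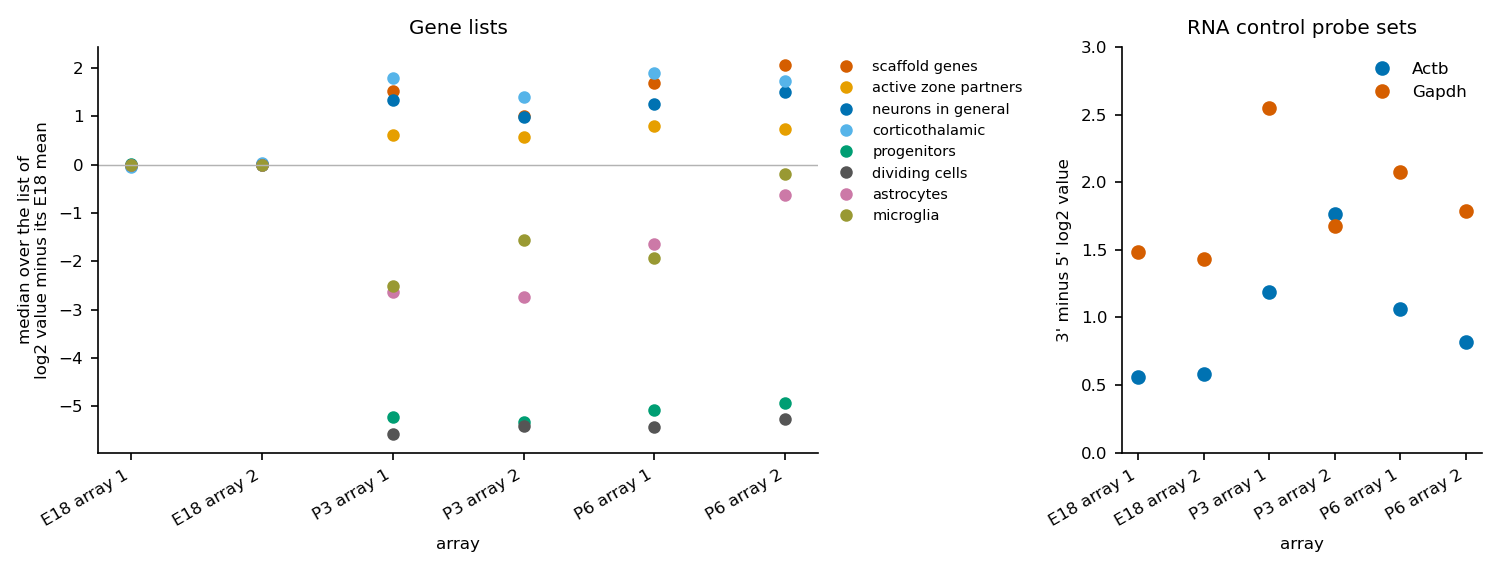
Left, the median over each gene list of the log2 level minus its E18 mean (vertical axis) on each of the 6 arrays (horizontal axis), 1 lead probe set a gene. Right, the 3' minus 5' log2 value of the Actb and Gapdh control probe sets on the same arrays. Members, partners, corticothalamic markers and general neuron markers lie above 0 on the P3 and P6 arrays, progenitor and dividing-cell markers lie near -5, and Actb is lowest on the E18 arrays.

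Marker lists of other cell types moved to unequal degrees over the same step from E18. General neuron markers, 12 genes, had 7 called higher and 0 lower with a median of 1.13, and their summed linear level was 17610 and 18071 at E18 and between 34991 and 42475 later. That of the 10 members went from 2648 on each E18 array to between 6877 and 8848. Progenitor markers summed to 39664 and 39553 at E18 and to between 1599 and 2451 later. Dividing-cell markers summed to 35585 and 36554, then to between 618 and 729. Astrocyte markers were called lower at P3 for 4 of 8 genes and microglial markers for 4 of 7. Oligodendrocyte-lineage markers had 2 of 6 tested genes called lower (median change -0.43) and endothelial markers 1 of 3 (-0.47). Of 6 tested interneuron markers 1 was called higher and 2 lower (-0.20). Over all tested probe sets 12.9% were called higher and 21.2% lower. On P6 replicate 2 the astrocyte and microglial sums, 5910 and 5632, were above those of the other P3 and P6 arrays. RMA values have no 0, so no marker could be read as absent. The part of these shifts in cell markers in the members' rise was not tested.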

How the data were processed

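Per the labels' protocols, sorted neurons gave RNA through a StrataPrep micro kit, and an Enzo BioArray kit was used for amplification and biotin labelling. The deposited values are on a log2 scale, 1 per probe set. The authors obtained them by RMA, per the submitters' processing notes; its version is not given in the sources used here. Whether the 6 arrays were normalised together is not stated. Names came from the platform annotation: of 45101 probe sets, 34945 had 1 gene symbol. The 25% with the lowest mean were left out and 26209 were tested.

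Stage means were fitted with limma 3.58.1 (R 4.3.3) on all 6 arrays, with an intensity trend and 3 residual degrees of freedom. Tests were 2-sided with Benjamini-Hochberg adjustment. The method was tested on simulated data with the same spread at every stage, which does not cover the unequal spread of these arrays. Members and lists were chosen with earlier results of these data known. Named were all members, 6 paralogs or close partners, and in each comparison the 3 called partners with the smallest p per direction. The number of arrays limits precision. Promoter windows came from RefSeq on GRCm38.p6. The alternatives were normalisation, dim-probe filters, variance models, array weights, control levels as covariates, probe set choice, stages in the fit, the replicate block and single arrays left out. For named partners they were added after the data were seen.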

Additional observations from a re-analysis of the deposited data

Results flagged for a closer look

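For 7 member probe sets the change from P3 to P6 differed from the change from E18 to P3 in a direct limma test of that difference, all 7 lower. Of all tested probe sets 15.7% were called in either direction and 3.88% lower. The same test called 4 of 12 general neuron markers and 2 of 10 corticothalamic markers lower, with list medians of -1.37 and -1.15. The difference, the second interval minus the first, was -2.01 ± 0.41 (SE) for Pclo 1419392_at (adjusted p = 0.0232), -2.12 ± 0.43 for Pclo 1455373_at (adjusted p = 0.0233) and -3.76 ± 0.33 for Pclo 1452423_at (adjusted p = 0.00171). Rims1 gave -2.32 ± 0.40 for 1435667_at (adjusted p = 0.0144) and -2.67 ± 0.50 for 1438305_at (adjusted p = 0.0186). Unc13a gave -2.80 ± 0.33 and Erc2 gave -2.39 ± 0.37. All 7 had risen between E18 and P3, and each interval used the same P3 arrays. Only the first interval includes the change from 1 to 2 days of labelling and the fall of progenitor and dividing-cell markers. The part of these in the difference was not tested. With the E18 arrays averaged, or without either E18 array, 5 of the 7 calls were lost, those of Pclo 1419392_at and 1455373_at, both Rims1 probe sets and Erc2 (adjusted p from 0.0800 to 0.147). The other 2, Pclo 1452423_at and Unc13a, were tested because of their later levels.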

How the results depend on the processing

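The P3 and P6 calls against E18 of every tested Pclo, Rims1, Unc13a and Erc2 probe set held under each alternative run for it. From E18 to P3, 11 of 21 member probe sets were called. This became 7 with the E18 arrays averaged, 7 of 10 with 1 probe set a gene, and 7 to 12 with single arrays left out. The median change of 0.98 became 1.24 after quantile normalisation, which moved the median of all tested probe sets from -0.01 to 0.098. It was 0.73 with no filter and 1.5 with the hybridization controls as a covariate. With that covariate fewer were called at P3, 8 of 21 member probe sets and 5 of 10 lead probe sets. The change of the lead Bsn probe set was then 0.46 (limma adjusted p = 0.368). At P6 against E18, 5 of 10 lead probe sets were called with it. From P3 to P6 the count of 0 ranged from 0 to 4 with single arrays left out. From E18 to P6 the 12 calls became 8 of 10 with 1 probe set a gene, and were fewer with the E18 arrays averaged. The median of 1.60 became 1.24 with no filter, 1.89 with the 18S covariate and 1.89 with 1 probe set a gene. The unequal change between intervals was called for 7, for 2 with the E18 arrays averaged, for 4 with 1 probe set a gene, for 4 with the mean of a gene's probe sets, and for 2 to 11 with single arrays left out. Its median of -0.82 became -1.21 after quantile normalisation and -1.09 to -0.80 with single arrays left out.

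Calls over all tested probe sets moved as well. From E18 to P3 the 8945 calls became 3091 with the E18 arrays averaged, 3285 with the hybridization control covariate, and 2996 to 13682 with single arrays left out. From E18 to P6 the 6923 became 3052, 3629 and, with array weights, 10839, and 3026 or more with single arrays left out. For the unequal change the 4112 became 1139, 1440 and 2513, and 1121 to 10770 with single arrays left out. From P3 to P6 the 0 became 5770 without P3 replicate 1.

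With the replicate block, the counts were 11, 0, 12 and 7, as without it. The titles' replicate numbers did not pair the samples, since deviations of same-numbered arrays correlated at -0.17, 0.05 and -0.24.

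Several changes that were not called turned sign. From E18 to P3, Rims2 1450761_s_at gave 0.026 after quantile normalisation, 0.22 with either control covariate and -0.53 to 0.098 with single arrays left out. From P3 to P6, quantile normalisation gave -0.085 for Pclo 1419392_at, -0.22 for Pclo 1455373_at, -0.22 for Rims1 1435667_at, -0.0014 for Rims2 1436470_at, -0.035 for Erc1 1451279_at and -0.048 for Erc1 1441493_at. With single arrays left out, that change ran from -0.77 to 0.40 for Bsn 1450467_at, from -0.22 to 0.32 for Pclo 1455373_at, from -0.035 to 0.22 for Rims1 1435667_at and from -0.46 to 0.29 for Rims1 1438305_at. It ran from -0.35 to 0.89 for Rims2 1436470_at, -0.086 to 0.36 for Rims2 1443215_at, -0.028 to 0.51 for Erc1 1451279_at, -0.54 to 0.27 for Erc1 1421501_a_at, -0.32 to 0.32 for Erc1 1441493_at and -0.017 to 0.89 for Ppfia2. For the unequal change, quantile normalisation gave -0.087 for Rims2 1422809_at and -0.64 for Erc1 1424247_at, and the 18S covariate gave 0.018 for Erc1 1441493_at. With single arrays left out it ran from -1.98 to 0.34 for Bsn 1450467_at, -0.45 to 1.55 for Rims2 1422809_at, -1.17 to 0.067 for Rims2 1436470_at, -1.53 to 0.096 for Erc1 1421501_a_at, -1.09 to 0.095 for Erc1 1441493_at and -0.37 to 0.35 for Ppfia3. The cause was not tested.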
